A study of Equus caballus with 2 samples.

Results

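Among unstimulated equine endometrial fibroblasts, the KRT8-positive cells were those selected on at least 3 unique molecular identifiers (UMIs, each standing for 1 captured transcript) of *KRT8* in the control library. Of 3865 control cells that passed the filters, 825 (21.3%, exact 95% binomial interval 20.1% to 22.7%) met this rule. They were compared, gene by gene, with the 2588 control cells (67.0%) that held 0 *KRT8* UMIs, and *KRT8* itself was left out of every comparison because it chose the cells. The remaining 452 cells with 1 or 2 *KRT8* UMIs (11.7%) stood between the groups.

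The fibroblasts came from mid-luteal mares whose endometrium was healthy or mildly fibrotic, were expanded by passage in culture, and were then grown on collagen-coated hydrogels, first in medium with 10% and then 4% fetal bovine serum. For the last 24 h the serum was replaced by 0.1% bovine serum albumin, and the control cells received nothing further, whereas the cells of the other library used here received 10 ng/ml human recombinant TGF-β1. Cells of 4 mares were pooled into each library, and although the study separated the animals by genotype, the cells were not split by mare here, so mare and *KRT8* status cannot be told apart in these values. Cells treated with MFGE8 were not analysed here.

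Keratins are the intermediate filament proteins of epithelia. They assemble as pairs of a type II and a type I chain, and KRT8, a type II keratin, pairs mainly with KRT18 in simple, single-layered epithelia such as the lining and glands of the endometrium. Fibroblasts build their intermediate filaments mainly from vimentin, although keratins of simple epithelia are also found in some cultured mesenchymal cells.

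Among the 4384 control barcodes (214282770 UMIs), the kept cells had a median of 50313 UMIs. Of the 5124 barcodes given TGF-β1 (224189951 UMIs), 4513 were kept, with a median of 43142 UMIs. The 2 libraries shared 6 barcodes. There was 1 library per condition and all cells compared came from the same library, so cells are not replicates, no test was made, and intervals cover counting error only. A gene was called higher or lower where its counts per 1000000 UMIs (CPM) differed by more than 1.5-fold, a limit of size alone. Doublets, which are droplets that held more than 1 cell, were not removed, and free RNA was not measured.

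*KRT8* was unevenly spread among the KRT8-positive cells. The median was 14 UMIs, the 10th percentile 4, the 90th percentile 71.6 and the highest cell 365. The 326 cells with 3 to 9 *KRT8* UMIs had a summed level of 92.6 CPM, and the 499 cells with 10 or more had 699 CPM and held 90.4% of all *KRT8* UMIs of the kept control cells. All KRT8-positive cells together held 97.7% of them. The rule was a cut through a continuous range. The 111 cells with exactly 2 *KRT8* UMIs, just outside it, had 26.0 CPM of *KRT7*, 121 CPM of *CFD* and 76.9 CPM of *IL11*, against 22.1, 71.6 and 123 CPM in the 76 cells with exactly 3, just inside it.

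**Figure D1:**
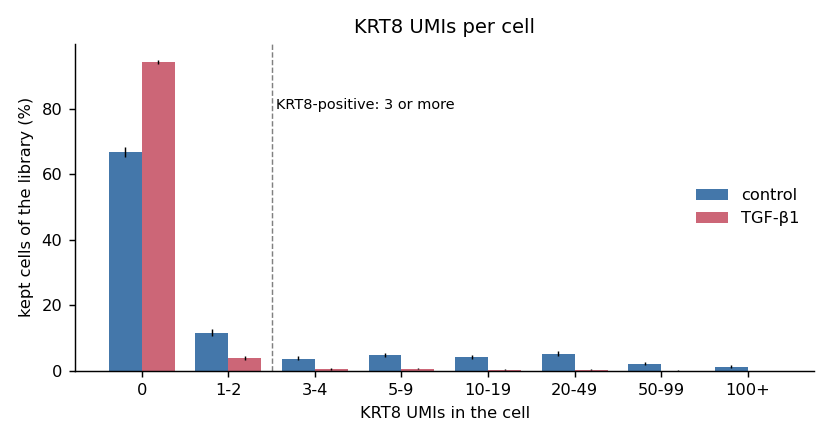
Share of kept cells of each library (y axis, percent) by the number of *KRT8* UMIs in the cell (x axis, bins), with exact 95% binomial intervals as lines and the dashed line at the limit of the rule. In the control library 67.0% of cells had 0 *KRT8* UMIs, and the others spread over all bins up to 100 or more, whereas 94.4% of TGF-β1 cells had 0.

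The KRT8-positive cells were somewhat deeper than the cells without a *KRT8* UMI. Their median was 54446 UMIs and 6655 genes, against 48997 UMIs and 6500 genes. The share of KRT8-positive cells was 15.1% in the shallowest tercile of control cells, 21.2% in the middle one and 27.8% in the deepest. After each cell was thinned to 20000 UMIs, 25.5% of control cells kept at least 1 *KRT8* UMI and 18.5% kept at least 2. The median share of mitochondrial UMIs was 1.53% in KRT8-positive cells and 1.46% in cells without *KRT8*. How far depth or undetected doublets take part in the differences below was not tested, apart from the depth-matched values given with them.

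By their defining markers the KRT8-positive cells were fibroblasts, and most epithelial markers other than keratins were at or near 0 in them. All 825 held *VIM* (vimentin) at 4610 CPM, against 4302 CPM in cells without *KRT8*, and *COL1A1* (type I collagen) at 5938 against 5455 CPM. Of the 18 stroma markers 12 had ratios below 0, with a median of -0.11, beside 7699 of all 12047 genes compared at 1 CPM or more, and *LUM* (lumican) had 454 against 596 CPM. Of the 18 fibroblast and endometrial stroma markers, 18 were detected in KRT8-positive cells, and 12 were found in more than 50% of them after thinning. *HOXA11* and *HAND2*, transcription factors of the uterine stroma, had 21.6 against 23.1 and 53.2 against 55.4 CPM. Of 21 epithelial markers found by symbol, 7 had 0 UMIs in the KRT8-positive cells, among them *EPCAM*, *CLDN3*, *ELF3* and *RAB25*. *CDH1*, the gene of E-cadherin, had 1 UMI in KRT8-positive cells and 5 UMIs in cells without *KRT8*. Only the protease inhibitors *SPINT1* and *SPINT2* reached a mean of 1 CPM, and the epithelial list summed to 52.6 CPM in KRT8-positive cells and 49.4 CPM in cells without *KRT8*. The usual partners of KRT8, *KRT18* and *KRT19*, were not found by symbol and so were not analysed here. Whether either is among the genes without a symbol was not checked.

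The summed markers of other cell types differed by less than the 1.5-fold limit between the groups. The mesothelial markers summed to 154 CPM in KRT8-positive cells and 152 CPM in the comparison cells, nearly all of it from *PDPN* and *WT1*. *CALB2* and *BNC1* had 0 UMIs in the KRT8-positive cells, and *UPK1B* had 8.41 against 6.75 CPM, a log2 ratio of 0.32 (0.15 to 0.49). The endothelial markers summed to 13.1 and 14.6 CPM, nearly all of it from *ERG*, while *CDH5* had 0 UMIs and *PECAM1* had 1 UMI in KRT8-positive cells. *EMCN* (endomucin), a rare transcript of the same list, had 3 UMIs in KRT8-positive cells and 80 UMIs, in 26 cells after thinning, in cells without *KRT8*. The immune markers summed to 54.5 and 57.7 CPM, from *CD68* and *CD14*, with *PTPRC*, the pan-leukocyte marker, at 0 UMIs in KRT8-positive cells.

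Among keratins found by symbol that reached a mean of 1 CPM, *KRT7* was the only other one called higher. *KRT7*, another type II keratin of simple epithelia, had 31.4 CPM in KRT8-positive cells and 14.6 CPM in cells without *KRT8*, a log2 ratio of 1.10 (95% interval 1.01 to 1.20). Its level was 20.4 CPM in cells with 1 or 2 *KRT8* UMIs, 20.7 CPM with 3 to 9 and 37.9 CPM with 10 or more. At equal depth, 34.2% of KRT8-positive cells held a *KRT7* UMI against 19.4% of cells without *KRT8*. The other keratins found by symbol did not follow. *KRT10A* was level, at 84.5 and 84.2 CPM, *KRT20* had a log2 ratio of -0.10 and *KRT23* of -0.58, both at under 2 CPM, and *KRT1* was called lower at 2.10 against 6.03 CPM. Of 31 keratin genes, 5 reached a mean of 1 CPM, of which 1 was higher and 1 lower. The 8 desmosome and plakin genes that reached 1 CPM, which anchor keratin filaments, had 0 calls, with *PLEC* (plectin) at 0.19 and *JUP* (plakoglobin) at -0.13. The other intermediate filament genes had 1 call, *NEFL*, a neurofilament chain, at 1.22 against 2.49 CPM.

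The label markers *SPP1* and *CEMIP* behaved differently from each other. *SPP1*, which encodes the secreted matrix protein osteopontin, had 5.49 CPM in KRT8-positive cells and 1.98 CPM in cells without *KRT8*, a log2 ratio of 1.47 (1.22 to 1.72). It was sparse, with 275 UMIs among the KRT8-positive cells and a UMI in 7.27% of them after thinning, against 2.94% of cells without *KRT8*. *CEMIP*, which encodes a protein needed for hyaluronan breakdown, had 49.5 against 36.9 CPM, a log2 ratio of 0.43 that stayed under the 1.5-fold limit. From the shallowest to the deepest tercile of cells the ratio of *CEMIP* was -0.36, 0.25 and 0.37, so its direction turned in the shallowest. When the comparison cells were weighted to the same mix of clusters as the KRT8-positive cells, the ratio of *CEMIP* was -0.02 and that of *SPP1* was 0.94. The *CEMIP* value averages clusters in which it went in different directions, given with the clusters below. The ratio of *SPP1* was above 0 in every cluster. In clusters 2 and 4 its interval spanned 0, from 11 and 7 UMIs in KRT8-positive cells. In the whole KRT8-positive group, 8 cells held 25.8% of the *SPP1* UMIs. Of the osteopontin receptors, *ITGB3* and *ITGB5*, integrin beta chains, were lower, at log2 ratios of -0.69 and -0.59, although *ITGB5* lost its call at -0.48 when matched on clusters and at -0.54 with a median-of-ratios size factor, and 0 of the 12 hyaluronan genes were called.

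Across the 7665 genes averaging 10 CPM or more, 16 (0.209%) were higher and 54 (0.705%) were lower in KRT8-positive cells. Among them, 3 of the higher and 1 of the lower genes had no symbol and are not named. Across the 12047 genes averaging 1 CPM or more, over which the gene lists are counted, 55 (0.457%) were higher and 295 (2.45%) lower. Of these 12047 genes, 4348 had ratios above 0 and 7699 below, and the median log2 ratio was -0.04. The lower genes kept their direction in all 3 depth terciles in 54 of 54 cases and the higher genes in 15 of 16. The exception was *IGF2*, with ratios of -0.03, 0.28 and 0.98 from the shallowest to the deepest. The terciles are parts of the cells that gave the calls, so this agreement was largely set by the choice of genes. With comparison cells weighted to the depths of the KRT8-positive cells, 11 higher and 51 lower genes were still past the limit. Among the higher genes named below, *LAMA3* and *ANXA3* were then under it, at 0.50 and 0.55, as were *EREG* and *ATRNL1*.

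The higher genes belonged to several kinds, and few came from any 1 list. Of 20 matricellular genes 2 were higher and 1 lower, with a median of -0.04, and of 10 annexins and 10 tubulins 1 each was higher. *ANKRD1*, an ankyrin repeat protein of muscle and stretched cells, had 66.5 against 32.7 CPM, a log2 ratio of 1.02 (0.96 to 1.09). That call of *ANKRD1* was lost when the cells were chosen after thinning, at 0.44, and its ratio was 0.14 in the shallowest tercile of cells, 0.68 in the middle and 0.93 in the deepest. *CCN5*, a secreted matricellular protein, had 371 against 230 CPM and was detected in 92.8% of KRT8-positive cells after thinning, against 83.9% of cells without *KRT8*. *TUBB3*, a beta-tubulin best known from neurons, had 83.7 against 52.1 CPM. *LAMA3*, a laminin chain of epithelial basement membranes, had 37.1 against 23.6 CPM, and *ITGBL1*, a secreted protein with integrin-like repeats, had 20.7 against 12.6 CPM. *ANXA3*, an annexin that binds membranes, had 52.6 against 33.1 CPM, and *MTUS1*, a microtubule-associated protein, had 20.7 against 12.7 CPM. *GRP*, which encodes gastrin-releasing peptide, had 29.3 against 17.0 CPM. *ATRNL1*, with 194 against 129 CPM, and *C2H8orf58*, with 17.0 against 8.91 CPM, completed the named higher genes together with *EREG*. The call of *C2H8orf58* was lost at 0.54 when matched on clusters. The call of *ATRNL1* was lost at 0.47 when matched on depth, 0.53 when matched on clusters and 0.38 without cluster 3 of the clusters described below. The next genes in size, *TK1*, *PDLIM2* and *ADGRD1*, lay between 0.54 and 0.57 and so under the limit. In *ANKRD1*, the 8 highest cells held 29.5% of the UMIs of the KRT8-positive cells, whereas in *CCN5* they held 5.00%.

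Ligands of the EGF receptor family moved in opposite directions. *AREG*, which encodes amphiregulin, had 15.1 CPM in KRT8-positive cells and 3.79 CPM in cells without *KRT8*, a log2 ratio of 2.00 (1.83 to 2.16), although its mean lay just under 10 CPM. From the shallowest to the deepest tercile of cells the ratio of *AREG* was 0.77, 1.00 and 2.50, and its level was 9.30, 9.13 and 18.8 CPM in cells with 1 or 2, 3 to 9 and 10 or more *KRT8* UMIs. It was found in few cells, 7.39% against 3.32% after thinning, and 8 cells held 40.1% of its UMIs in the KRT8-positive group. *EREG*, or epiregulin, had 102 against 67.6 CPM (0.59, 0.54 to 0.64), just over the limit, a call that was lost with 0.46 when matched on depth and 0.47 when matched on clusters. The ratio of *EREG* was 0.35, 0.24 and 0.60 from the shallowest to the deepest tercile. *NRG1*, or neuregulin, which signals through other receptors of the family, had 7.63 against 26.8 CPM (-1.81, -1.97 to -1.66), and its level was lower in each bin of *KRT8*, at 16.1, 10.4 and 5.92 CPM in cells with 1 or 2, 3 to 9 and 10 or more UMIs. The other members, looked up after these values were seen, were not called at 10 CPM or more. *HBEGF* had 16.4 CPM in both groups, *TGFA* 3.02 against 3.53 CPM, *BTC* 3.22 against 2.16 CPM, and the receptor *EGFR* 50.6 against 55.0 CPM. Of 28 growth factors and receptors at 1 CPM or more, 3 were higher and 4 lower, the median being -0.10. The others called were *IGF2*, higher, and *FGF7*, *GREM1* and *PDGFD*, lower, of which *FGF7*, a stromal growth factor for epithelia, had 21.6 against 38.9 CPM. Matched on clusters, *FGF7* had -0.56, *PDGFD* -0.45 and *IGF2* 0.42, all under the limit.

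**Figure D2:**
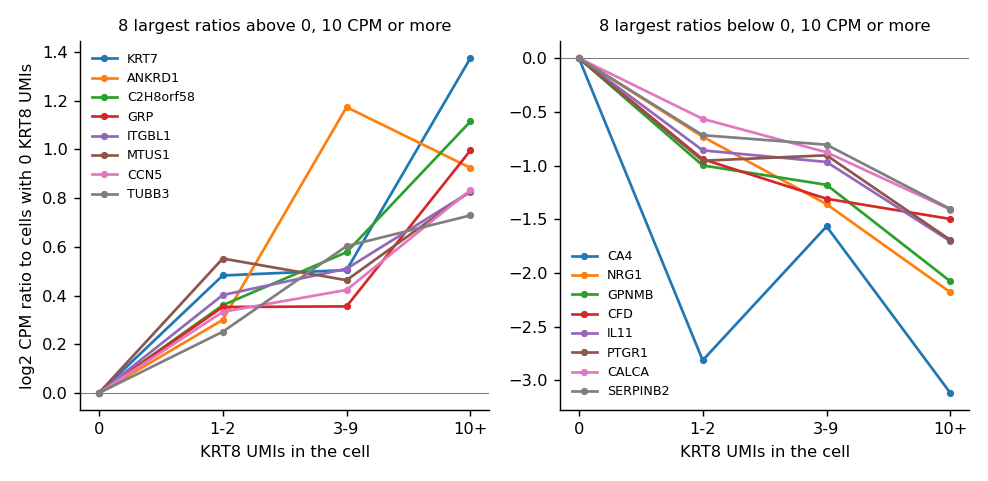
Log2 ratio of CPM to cells with 0 *KRT8* UMIs (y axis) in cells with 0, 1 to 2, 3 to 9 and 10 or more *KRT8* UMIs (x axis), for the 8 named genes averaging 10 CPM or more with the largest ratios above 0 (left) and below 0 (right). Most lines move further from 0 in each bin, and *ANKRD1*, *MTUS1*, *CA4* and *PTGR1* do not.

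Of 22 inflammatory and NF-κB genes, 4 were lower and 0 higher, 20 had ratios below 0 and the median was -0.20. Over all 12047 genes, 7699 had ratios below 0, 2.45% were lower and the median was -0.04. *IL11*, a cytokine of the IL-6 family, had 72.2 CPM in KRT8-positive cells and 188 CPM in cells without *KRT8*, a log2 ratio of -1.38 (-1.43 to -1.33). *PTGS2*, the inducible cyclooxygenase, had 58.6 against 104 CPM, *CXCL6*, a neutrophil-attracting chemokine, 364 against 593 CPM, and *IL1A* 0.84 against 1.86 CPM. *CXCL6* lost its call, at -0.56, without cluster 3 of the clusters described below. *CFD*, or complement factor D, a protease of the alternative complement pathway, had 103 against 277 CPM (-1.42, -1.46 to -1.38), and was the single call among 12 complement genes. *CFD* was found in 33.7% of cells with 10 or more *KRT8* UMIs and in 47.5% of cells with none, at equal depth. Interferon-stimulated genes had 1 lower call, *ISG20*, which was lost at -0.55 when matched on clusters, and the proteasome subunits *PSMB9* and *PSMB8* had ratios of 0.42 and 0.38.

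Of 18 genes of matrix metalloproteinases, their inhibitors and the plasminogen system, 4 were lower, 0 were higher and 14 did not pass the limit, 4 had ratios above 0, and the median was -0.21. *SERPINB2*, an inhibitor of plasminogen activators, had 69.0 against 153 CPM (-1.15), *MMP14*, a membrane-bound collagenase, 15.1 against 24.7 CPM (-0.71, and -0.56 and so under the limit when matched on clusters), *MMP9* a ratio of -1.31, and *MMP1* 0.48 against 3.17 CPM from 24 UMIs in the KRT8-positive cells. *FAP*, a surface protease of activated fibroblasts, had 46.3 against 77.1 CPM. *FAP* and *MME* were the calls among the 18 stroma markers, that of *FAP* being lost at -0.51 when matched on clusters, and *DCN* (decorin) had 1573 against 2341 CPM, a ratio of -0.57 that was just under the limit.

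The collagen genes called were mostly of low level. Of 24 collagen chains, 1 was higher, *COL21A1* at 7.99 against 4.84 CPM, and 5 were lower. Without cluster 3 *COL21A1* had 0.57, under the limit. *COL4A3* and *COL4A4*, basement membrane chains, had ratios of -1.26 and -0.99, *COL8A1* of -1.16, *COL24A1* of -0.61 and *COL15A1* of -0.65, and the chains had a median of -0.17. *COL24A1* had -0.15 when matched on clusters and 0.22 in the middle tercile of cells. The fibrillar *COL1A1* had a ratio of 0.12. The 21 TGF-β responsive genes had 0 calls in either direction and a median of -0.13, with *IGFBP3* at -0.58 and *SMAD7* at -0.26. The 19 smooth muscle contractile genes had 2 lower calls, *MYH11* (smooth muscle myosin) at 29.5 against 47.1 CPM and *ACTG2* (smooth muscle actin) at 258 against 391 CPM, with a median of -0.01. *MYH11* lost its call at -0.54 without cluster 3, and *ACTG2* at -0.55 with a median-of-ratios size factor.

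Of the remaining named lower genes, *CA4*, a membrane-bound carbonic anhydrase, had the lowest ratio, with 8.01 against 40.2 CPM (-2.33, -2.48 to -2.18). It was concentrated in few of the KRT8-positive cells, 8 of which held 72.8% of its UMIs. *GPNMB*, a membrane glycoprotein, had a ratio of -1.67, *PTGR1*, which inactivates prostaglandins and leukotrienes, had 9.43 against 23.9 CPM, and *HMOX1*, or heme oxygenase, 18.0 against 37.7 CPM. *CALCA*, which encodes calcitonin and a related peptide, had 7.93 against 18.0 CPM. *TRPM3*, an ion channel, had 15.8 against 33.9 CPM, and *RBFOX1*, a splicing regulator, 13.1 against 28.1 CPM. *MYRIP*, *HMCN1*, *EDNRB* (an endothelin receptor) and *APOE* (apolipoprotein E) had ratios between -0.99 and -0.94. Of 22 p53 and senescence genes, *CDKN1A*, an inhibitor of the cell cycle, was lower at 42.3 against 70.1 CPM. So was *GDF15* at 0.80 against 1.57 CPM, and *BAX* had a ratio of -0.50. The call of *CDKN1A* was lost at -0.56 when matched on clusters, and *GDF15* had ratios of 0.55, 0.98 and -2.21 from the shallowest to the deepest tercile. *HSD11B1*, which regenerates active glucocorticoid, was the single call of the steroid and decidual list, at 2.58 against 5.45 CPM.

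Genes of DNA synthesis lay above 0 in most cases. Of 31 S phase genes, 2 were higher, *CLSPN* and *CCNE2*, and 26 had ratios above 0, with a median of 0.20. Over all 12047 genes, 4348 had ratios above 0. With cycling cells removed the S phase median was -0.07 and the call of *CLSPN* was lost, at 0.05. Matched on depth, *CLSPN* had 0.19 and *CCNE2* 0.43, and matched on clusters *CLSPN* had 0.37 and *CCNE2* 0.54, all under the limit. In 1 tercile of cells each, *CLSPN* (-0.78) and *CCNE2* (-0.36) were below 0. *MCM3*, of the replicative helicase, had 7.81 against 5.22 CPM, under the limit, and a ratio of 0.01 without cycling cells. In the KRT8-positive group 8 cells held 56.2% of the *CLSPN* UMIs, 38.4% of those of *CCNE2* and 36.6% of those of *MCM3*. The 28 G2/M genes had 0 calls, with a median of 0.17 that became -0.14 when clusters were matched. Cells with at least 3 cycling markers made up 2.79% (1.78% to 4.15%) of KRT8-positive cells and 1.62% (1.17% to 2.19%) of cells without *KRT8*. The 56 cytosolic ribosomal protein genes had 52 ratios above 0 and a median of only 0.09, with 0 calls. The 20 cholesterol genes and the 27 immediate early genes had 0 calls, and the 32 hypoxia and glycolysis genes had 1 lower call, *EGLN3*, which was lost at -0.53 when matched on clusters. Of the 13 mitochondrially encoded genes 1 was higher, *MT-ND4L*, at 1.96 against 1.03 CPM, and its ratio of 0.92 was -0.12 after matching on clusters. *MT-CO3*, not called, had 0.35 and likewise -0.04.

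The KRT8-positive cells were not a cluster of their own. Control cells were clustered again with *KRT8* left out, which gave 5 clusters, and KRT8-positive cells were found in each. They made up 38.0% (34.5% to 41.6%) of cluster 3, whose leading genes were *AREG*, *KRT7*, *ANKRD1*, *IGFBP5*, *HBA2*, *CEMIP* and *MT-CO3*, and 20.3% of cluster 0, 14.2% of cluster 1, 14.6% of cluster 2 and 27.9% of the 86 cells of cluster 4, led by the mitotic genes *CENPF*, *CCNA2* and *ASPM*. Cluster 3 held 34.4% of all KRT8-positive cells and cluster 0 held 33.9%. In the study's own clustering, a cluster came almost entirely from a single mare. Whether any rebuilt cluster follows mare was not tested. The mitochondrial transcript *MT-CO3* had 3270 CPM in the KRT8-positive cells of cluster 3 and 3549 CPM in its cells without *KRT8*, and between 1102 and 1262 CPM in both groups of clusters 0, 1 and 2, and the part of this in the share of cluster 3 was not tested. The highest share of any cluster was between 37.1% and 38.3% at the other resolutions of 0.3 and 0.8, and 38.2% when cycling genes were left out. Within the KRT8-positive cells, the median *KRT8* count was 20 in cluster 3 and between 11 and 17.5 in the others.

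**Figure D3:**
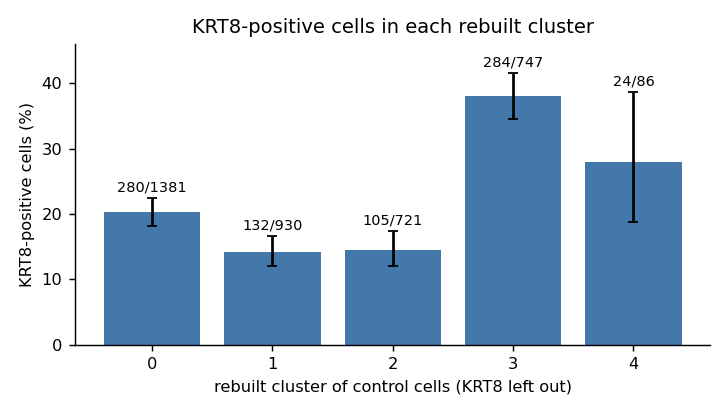
Share of KRT8-positive cells (y axis, percent) in each of the 5 rebuilt clusters of control cells (x axis), with exact 95% binomial intervals and the number of KRT8-positive cells of all cells above each bar. Cluster 3 stands at 38.0%, and clusters 0, 1 and 2 lie between 14.2% and 20.3%.

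*KRT7* was higher in KRT8-positive cells inside every cluster. It had 15.8 against 12.1 CPM in cluster 0, 15.3 against 8.92 CPM in cluster 1, 20.5 against 8.96 CPM in cluster 2, 58.3 against 40.2 CPM in cluster 3 and 22.5 against 6.66 CPM in cluster 4. The cells of cluster 3 without *KRT8* thus had more *KRT7* than the KRT8-positive cells of any other cluster. *IL11* was lower in KRT8-positive cells of every cluster, most in cluster 1 with 97.6 against 312 CPM. *CFD* was lower in all 5 as well, with 222 against 662 CPM in cluster 2, where its level was highest, and 24.9 against 30.3 CPM in cluster 3. *CA4* differed most in cluster 2, with 4.96 against 158 CPM, and in cluster 4 its interval spanned 0. *SERPINB2* had 60.1 against 213 CPM in cluster 3 but 203 against 211 CPM in cluster 4, where its interval also spanned 0. *CEMIP* was higher in clusters 1 and 4, at 46.2 against 39.7 and 46.7 against 13.0 CPM. Its log2 ratio was -0.19 in cluster 0, -0.05 in cluster 2 and -0.11 in cluster 3, with intervals that spanned 0 in clusters 0 and 2.

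Most ratios were smaller when the mix of clusters was the same in both groups. With comparison cells weighted to the clusters of the KRT8-positive cells, 16 of 16 higher and 54 of 54 lower genes kept their direction, and 5 and 28 of them were still past 1.5-fold. The median log2 ratio of the higher genes went from 0.69 to 0.50, and that of the lower genes from -0.77 to -0.60. *KRT7* kept a ratio of 0.60, *ITGBL1* of 0.79, *MTUS1* of 0.65 and *TUBB3* of 0.60. Without cluster 3, however, *ITGBL1* had 0.57, *MTUS1* 0.42 and *CCN5* 0.49, all under the limit. After matching on clusters, *ANKRD1* had 0.48, *GRP* 0.40, *C2H8orf58* 0.54, *CCN5* 0.29, *LAMA3* 0.36 and *ANXA3* 0.35, under the limit. Among the lower genes, *CA4* had -1.90, *GPNMB* -1.41, *NRG1* -1.36, *SERPINB2* -1.27 and *IL11* -1.18, whereas *FAP*, *MMP14*, *FGF7*, *CDKN1A* and *ITGB5* were between -0.56 and -0.48 and so under the limit. *ACTG2* had -0.99 after matching against -0.60 before. The genes were called in these same cells, so the kept directions were largely set by the choice of genes. Because the clusters rest on the same genes too, these values are a description.

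**Figure D4:**
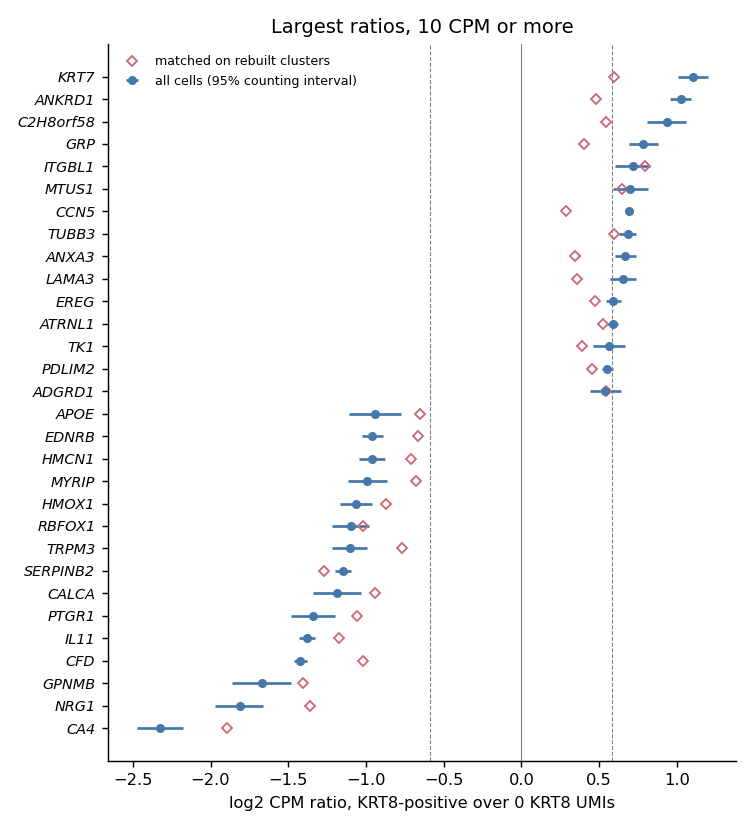
Log2 ratio of CPM, KRT8-positive cells over cells with 0 *KRT8* UMIs (x axis), for the 15 genes averaging 10 CPM or more with the largest ratios in either direction (y axis), with all cells as points with 95% counting intervals, matched on clusters as diamonds and the 1.5-fold limit dashed. *KRT7* moves from 1.10 to 0.60 and *SERPINB2* from -1.15 to -1.27 after matching.

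Within the KRT8-positive cells, the higher genes did not mark the same cells throughout. After thinning, 282 of the 825 held *KRT7*, 244 held *ANKRD1*, 61 held *AREG* and 60 held *SPP1*. *ANKRD1* was found in 54.1% (40.8% to 66.9%) of cells with *AREG* and in 27.6% (24.5% to 30.9%) of those without. *SPP1* was found in 9.93% (6.70% to 14.0%) of cells with *KRT7* and 5.89% (4.07% to 8.22%) of those without, and *ANKRD1* in 30.9% and 28.9%, so that the intervals overlapped in both. *CFD* was found in 29.1% (23.5% to 35.2%) of cells with *ANKRD1* and 39.8% (35.8% to 43.9%) of those without. *IL11* was found in 45.4% of cells with *CFD* and 44.6% of cells without, although both genes were lower in the group. Seen from the other side, KRT8-positive cells made up 39.2% (31.4% to 47.4%) of the 153 control cells with *SPP1*, 31.4% (28.3% to 34.5%) of the 899 with *KRT7* and 24.7% (22.0% to 27.6%) of the 940 with *CEMIP*.

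The same rule in the TGF-β1 library found few cells. There, 79 of 4513 cells (1.75%, 1.39% to 2.18%) had at least 3 *KRT8* UMIs and 4262 had none, and *KRT8* stood at 4.48 CPM over all kept cells against 114 CPM in the control library. After thinning, 3.52% of TGF-β1 cells held at least 1 *KRT8* UMI. Library preparation and TGF-β1 cannot be told apart in this difference. The TGF-β1 cells took no part in the choice of the control cells, although they came from the same 4 mares. Of the 16 higher genes, 15 had ratios above 0 among TGF-β1 cells and 9 were past 1.5-fold, whereas over all 7660 genes compared 48.5% had ratios above 0 and 0.901% were past the limit. Of 51 lower genes with enough UMIs, 49 had ratios below 0 and 28 were past the limit, against 51.5% and 1.48% of all genes.

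By gene, *KRT7* had 15.3 against 6.58 CPM in the TGF-β1 library (log2 1.22, 0.86 to 1.56), *SPP1* 27.7 against 10.8 CPM, *AREG* 219 against 64.8 CPM and *CCN5* 256 against 128 CPM. *ANKRD1* was at a higher level than in the control library in both groups, with 659 against 310 CPM, and its log2 ratio of 1.09 was close to the 1.02 of the control. *IL11* likewise stood at 934 against 2041 CPM, a ratio of -1.13, and *CFD* had a ratio of -2.41 (-2.96 to -1.91). *NRG1* had -1.31 and *SERPINB2* -1.03. *CEMIP* had 20.9 against 11.5 CPM. Of the genes that did not keep their direction, *IGF2* had -0.78, and *MYRIP* 0.07, with intervals that included 0, and *ECM1* had 0.17 (0.03 to 0.30). *EREG* kept only 0.12. *CA4* had 0 UMIs in the KRT8-positive TGF-β1 cells.

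**Figure D5:**
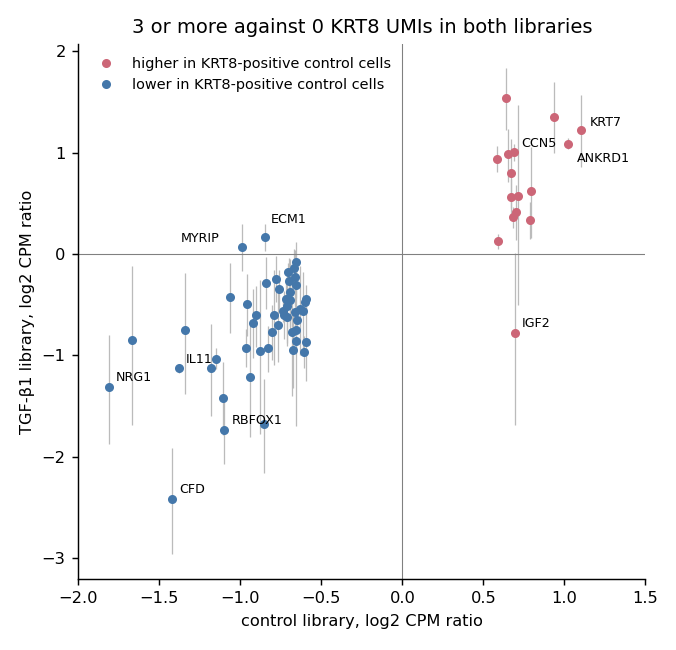
Log2 ratio of CPM, cells with at least 3 over cells with 0 *KRT8* UMIs, in the control library (x axis) and the TGF-β1 library (y axis, lines are 95% counting intervals), for the 67 called genes with more than 3 UMIs in the KRT8-positive TGF-β1 cells. The points lie in the lower left and upper right, except *IGF2*, *ECM1* and *MYRIP*.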

How the data were processed

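The authors deposited UMI counts per gene and barcode, made with Cell Ranger on the EquCab3.0 build with Ensembl genes. The labels name Cell Ranger 7.1.0 and the file header 8.0.1. The counts were whole numbers, without normalization or the study's cell filters. Both libraries list 21426 genes, of which 5196 have no symbol, and no genomic positions were used. The doublet and mare calls of the study rest on reads and were not repeated. Neither Seurat nor edgeR was run here.

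Kept cells had 20000 UMIs or more, 3500 genes or more and a mitochondrial (MT- symbols) share below 4%. UMIs were summed per cell group, scaled to CPM without *KRT8*, and compared as log2 ratios without a pseudocount, where either group had more than 3 UMIs. The kept control cells held 210497250 UMIs and the kept TGF-β1 cells 219731144, which makes intervals (exact binomial, 95%) narrow for abundant genes. Mares, doublets and repeat cultures are not in them. Cells were grouped by *KRT8* UMIs alone. Shares of cells with a gene are after thinning to 20000 UMIs with a fixed seed. Clusters used scanpy 1.11.5 with 2000 variable genes, 30 components, 20 neighbours and Leiden resolution 0.5, and were not named.

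The KRT8-positive cells, the 33 gene lists and the alternatives were chosen with earlier results of these data known. Named were the keratins at 1 CPM or more, the label markers, the up to 4 largest ratios of each list, and the 15 largest ratios above and below 0 among genes that have a symbol, 10 CPM or more and 1 direction in all 3 depth terciles. *COL1A1*, *VIM*, *COL15A1*, *COL24A1*, *PDGFD*, *IGF2*, *ECM1*, the EGF family and single cell type markers were added after their values were seen. The ratios were tested on simulated data for this comparison with 7683 genes. There, 200 of 200 genes changed 2-fold were recovered, with 0 false calls among 7483, and 95.1% of intervals held the true value. The simulated counts were drawn for each whole group with counting error alone. They held no spread between cells or mares and no doublets, so they cover the calculation only. Python 3.11.15, numpy 2.4.6, scipy 1.17.1, pandas 2.3.3, igraph 0.11.9 and matplotlib 3.10.9 were used.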

Additional observations from a re-analysis of the deposited data

Results flagged for a closer look

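*ECM1*, which encodes a secreted matrix protein, had opposite directions in the 2 libraries. Its log2 ratio, KRT8-positive cells over cells with 0 *KRT8* UMIs, was -0.85 among control cells and 0.17 among TGF-β1 cells, and both counting intervals left out 0. The difference between the libraries was not tested, as there is 1 library per condition.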

How the results depend on the processing

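The counts of 16 higher and 54 lower genes moved by more than 1.5 times under 5 settings. Requiring at least 10 *KRT8* UMIs gave 30 higher and 90 lower genes, matching on rebuilt clusters gave 7 and 29, a minimum of 1 CPM gave 55 and 295, a minimum of 50 CPM gave 4 and 15, and a 2-fold limit gave 2 and 11. The other settings gave between 11 and 20 higher and between 41 and 67 lower genes. Leaving out cluster 3, an alternative chosen after seeing the data, gave 11 higher genes, of which 5 were among the 16, and 41 lower, of which 33 were among the 54. The share of KRT8-positive control cells was 33.0% at 1 or more UMIs, 24.2% at 2, 17.6% at 5 and 12.9% at 10, and 25.5% and 18.5% at 1 and 2 after thinning. Of 143 named genes, 127 kept the sign of their ratio under all alternatives, and of 33 lists, 18 kept the sign of their median. None of the 16 named genes that changed sign was called at 10 CPM or more, and genes outside the naming rule, such as *IGF2*, were not followed. No pairing by mare was made, because the mare calls of the study rest on reads and were not repeated. With 1 library per condition, no replicate could be left out. Depth limits the genes under 1 CPM and the 79 KRT8-positive TGF-β1 cells.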
